A study of Homo sapiens with 4 samples.

Results

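The genes described here carry a systematic name of the long intergenic noncoding RNA (LINC) series, LINC followed by 5 digits, and were chosen by their measured counts, a mean raw count of at least 50 over the 4 libraries. Of 28278 genes in the count table, 1735 had such a name, 1263 of these were listed at 0 in every library, and 100 reached the mean of 50 and are called members below. All libraries were labelled as HepG2, a human liver cancer cell line, infected with lentivirus carrying Cas9 and a guide RNA, puromycin-selected and exposed to Sorafenib at 10 µM over 24 h. The control group (n = 2) received a control sgRNA, and the group labelled sgUSP22 (n = 2) received an sgRNA against *USP22*, which encodes a histone H2B deubiquitinase of the SAGA complex. Sorafenib, a kinase inhibitor used in advanced liver cancer, was present in both groups, so the comparison is between the 2 sgRNAs under the drug, and no clones are named for either line.

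Long intergenic noncoding RNAs are transcribed by RNA polymerase II from their own start sites, and many are capped, spliced and polyadenylated like messenger RNAs without encoding a known protein. Some act near the site of their own transcription on a neighbouring gene, some act elsewhere in the nucleus or cytoplasm, and for many no role is known. As a class they are transcribed at lower levels than coding genes and in fewer cell types. The sequenced molecule was polyA RNA, so transcripts without a polyA tail are outside these values.

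Library totals ranged from 62030307 to 64728272 counts, and 3 counts correspond to between 0.0457 and 0.0492 CPM, the counts scaled to the normalised library size. *USP22* had 16450 and 16537 counts in control and 20279 and 20368 in the libraries labelled sgUSP22. Its log2 fold change was 0.22 (SE 0.034, edgeR quasi-likelihood test, adjusted p = 0.000394), so its RNA was not lower in the libraries labelled as knockout. The level of its protein is not measured by these data. Of 18 hepatocyte markers, 9 were listed at 0 in all 4 libraries, among them *ALB*, *APOA1*, *APOB*, *TTR* and *FOXA2*, and only *FOXA1* had a mean of at least 50 counts. Their summed level was 16.3 and 17.0 CPM in control against 12.5 in each library labelled sgUSP22. The data therefore go against the liver cell label at these markers, and every direction below is between libraries as labelled.

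Promoters of 4 members are printed first, chosen after their values were seen to show, among the 8 largest called changes in each direction, 1 start site rich in CpG and 1 poor in it. *LINC01355* and *LINC00963* had higher counts in the libraries labelled sgUSP22, and *LINC01547* and *LINC00997* had lower counts. Each run is read 5′ to 3′ in the direction of the gene, from 250 bases before to 50 bases after the RefSeq start on GRCh38.p14. Capitals mark matches on either strand to 3 promoter motifs. These are the TATA box, with the letters TATAAA, then the CCAAT box, spelled as its name, and the GC box, with the letters GGGCGG.
LINC01355, chr1:23285469-23285768, minus strand: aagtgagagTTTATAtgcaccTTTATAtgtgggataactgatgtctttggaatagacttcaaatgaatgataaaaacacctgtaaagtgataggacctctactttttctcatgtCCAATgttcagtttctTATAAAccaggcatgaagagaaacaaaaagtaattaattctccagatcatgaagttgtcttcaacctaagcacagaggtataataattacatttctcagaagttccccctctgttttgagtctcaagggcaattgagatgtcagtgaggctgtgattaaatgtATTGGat
LINC00963, chr9:129488410-129488709, plus strand: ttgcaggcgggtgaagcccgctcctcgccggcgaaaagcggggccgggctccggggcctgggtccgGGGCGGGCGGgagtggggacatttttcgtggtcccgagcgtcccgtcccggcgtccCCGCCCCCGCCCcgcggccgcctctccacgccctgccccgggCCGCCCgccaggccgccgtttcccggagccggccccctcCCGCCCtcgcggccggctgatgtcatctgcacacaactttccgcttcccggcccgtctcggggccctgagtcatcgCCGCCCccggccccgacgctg
LINC01547, chr21:44939864-44940163, minus strand: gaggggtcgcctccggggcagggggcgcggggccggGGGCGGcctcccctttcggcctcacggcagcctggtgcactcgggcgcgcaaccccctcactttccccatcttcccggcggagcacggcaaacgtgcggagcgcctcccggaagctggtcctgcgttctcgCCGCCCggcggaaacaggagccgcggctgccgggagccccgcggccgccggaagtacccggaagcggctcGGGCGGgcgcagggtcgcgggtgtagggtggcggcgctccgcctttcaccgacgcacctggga
LINC00997, chr7:32758036-32758335, plus strand: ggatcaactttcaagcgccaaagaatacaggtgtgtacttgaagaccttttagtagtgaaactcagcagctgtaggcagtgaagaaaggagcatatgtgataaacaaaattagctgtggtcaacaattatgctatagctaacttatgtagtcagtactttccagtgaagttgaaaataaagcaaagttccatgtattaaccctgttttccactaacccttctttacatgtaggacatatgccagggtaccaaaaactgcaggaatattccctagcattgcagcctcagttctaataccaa
The *LINC01355* promoter was 35.3% GC and held 0 CpG dinucleotides, and that of *LINC00997* was 39.0% GC with 1 CpG. By contrast, the *LINC00963* promoter was 78.0% GC with 43 CpGs and 7 GC boxes, and that of *LINC01547* was 76.3% GC with 42 CpGs and 3 GC boxes. Since these 4 were picked for this contrast, they show nothing about promoters of called members as a whole.

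A promoter was listed for 77 of the 100 members. Their median was 21 CpGs per 300 bases, against 14 over 27305 listed promoters, and 18.2% of them had at most 5 CpGs against 34.4% of all. Among members with a call, defined below, the median was 16.5 CpGs for the 12 higher and 16.5 for the 12 lower ones, and it was 22 for the 53 that were not called. At most 5 CpGs were found in 5 of 12 higher, 4 of 12 lower and 5 of 53 uncalled promoters. The GC box stood in 57.1% of member promoters and 44.6% of all, the CCAAT box in 45.5% and 35.7%, and the TATA box in 11.7% and 12.0%. A cAMP response element (TGACGTCA) was found in 2.60% of member promoters and 1.98% of all, and the E-box CACGTG in 6.49% and 7.44%. These matches, counted on both strands and with the GC box free to overlap itself, are descriptions of sequence and not sites of binding.

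The LINC members were a small and unevenly shared part of the transcriptome. Together they took 0.0928% and 0.0925% of the control libraries and 0.0891% and 0.0890% of the libraries labelled sgUSP22. In CPM their sum was 944.0 and 942.8 in control and 878.1 and 871.2 in the libraries labelled sgUSP22, so the groups did not overlap. Without the 2 members with the most counts, *LINC02067* and *LINC01578*, the sum was 693.1 and 685.8 CPM in control and 674.0 and 677.0 in the libraries labelled sgUSP22, so most of the difference lay in these 2 genes. The members held 94.6% of all counts of the 1735 symbols. The mean count of a member ran from 53 to 9276 with a median of 216.9, and 11 members had at least 1000 counts, 63 had between 100 and 1000 and 26 had fewer than 100. The 2 with the most counts held 24.9% of the members' counts and the top 10 held 55.2%.

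Levels of different genes can be compared only per transcript length, and this was done for the 93 members that GENCODE lists as long noncoding RNA with a canonical transcript (median length 1996 bases). Their level was between 0.27 and 51.5 CPM per kb with a median of 1.71, and 30 of them were under 1 CPM per kb. Tested coding genes, 13120 with a length, had a median of 8.74 CPM per kb, which 10 members exceeded. *LINC02067* at 51.5, *LINC01578* at 46.9 and *LINC02693* at 42.5 CPM per kb were the highest, followed by *LINC01278* at 28.6, *LINC00667* at 17.6 and *LINC01123* at 16.2 CPM per kb. The annotation used for counting is not given in the sources used here, so these lengths may differ from those behind the counts.

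*LINC02067* (chr3:161426427-161448242, plus strand, 4 exons) had the most counts, 9758 and 9934 in control and 9082 and 8331 in the libraries labelled sgUSP22. Both control values lay above both others, at 159.6 ± 0.564 against 133.6 ± 6.47 CPM (mean ± SD, n = 2), and the log2 fold change was −0.26 (SE 0.042, edgeR, adjusted p = 0.000635), below the 1.5-fold size that a call required. *LINC01578* (chr15:92882843-92898747, plus strand), also named *CHASERR*, lies next to *CHD2*, a chromatin remodeller gene that its transcription is known to restrain. It had 5545 and 6102 counts in control and 4335 and 4205 in the libraries labelled sgUSP22. That difference, −0.53 on the log2 scale (SE 0.048, edgeR, adjusted p = 1.29e-05), was also under 1.5-fold, and *CHD2*, with which it shares exonic bases on the same strand, had a log2 fold change of 0.07.

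*LINC02693* (chr17:21528310-21551678, minus strand) had 3303 and 3499 counts in control and 3367 and 3436 in the libraries labelled sgUSP22, with a log2 fold change of −0.08 that did not pass the test (edgeR, adjusted p = 0.225). *LINC01278* (chrX:63426558-63561095, minus strand) had 2858 and 2923 counts in control and 2199 and 2260 in the libraries labelled sgUSP22, a difference of −0.45 (SE 0.055, edgeR, adjusted p = 8.87e-05). Of the other 6 members with the most counts, *LINC00707* at −0.52 and *LINC00667* at −0.28 passed the adjusted p in the lower direction, and *LINC00294* at 0.43 and *LINC00674* at 0.20 in the higher. *LINC01123* and *LINC01000*, at −0.07 and −0.09, did not pass it (edgeR, adjusted p = 0.335 and 0.489). None of these 10 changed by 1.5-fold or more in this fit. With a correction for GC content and transcript length, added after seeing the data, *LINC01578* at −0.74 and *LINC00707* at −0.61 were called lower (edgeR, adjusted p = 2.35e-07 and 6.76e-05). Without the correction, the only called member above 1000 mean counts was *LINC00963*, the eleventh by count, which was called higher.

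Control and sgUSP22-labelled libraries were then compared across all 15150 genes that passed a filter on low counts, and a gene was called at an adjusted p below 0.05 and a change of at least 1.5-fold. All 100 members passed the filter. Of them, 16 were called higher and 15 lower in the libraries labelled sgUSP22, and 69 were not called. Over all tested genes 8.88% were called higher and 7.25% lower, and over the 12937 genes with a mean of at least 50 counts 9.01% and 7.17%. By DESeq2 10 members were called higher and 13 lower, against 7.14% and 5.59% of 16884 genes. With the adjusted p alone, 21 members were higher and 23 lower, 44 in all, where 52.5% of all tested genes passed.

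The members were called nearly as often upward as downward, in both directions at a higher share than all tested genes, a difference that was not tested. Their median log2 fold change was −0.0069 beside 0.0009 over all tested genes. The median absolute change was 0.43 against 0.29 over all tested genes and 0.26 over genes with a mean of at least 50 counts. The quartiles were −0.45 and 0.41 and the extremes −2.13 and 2.26. In 71 members the groups did not overlap, 32 with the libraries labelled sgUSP22 above control and 39 below, while 75.9% of all tested genes did not overlap. At least a 2-fold change was seen in 9 of the members called higher and 6 of those called lower. Because the rule took the mean of all libraries, 12 members had a mean under 50 in 1 group and reached 50 through the other, and 5 of these were called higher and 4 lower. The 88 with a mean of at least 50 in both groups included 11 called higher and 11 lower.

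**Figure D1:**
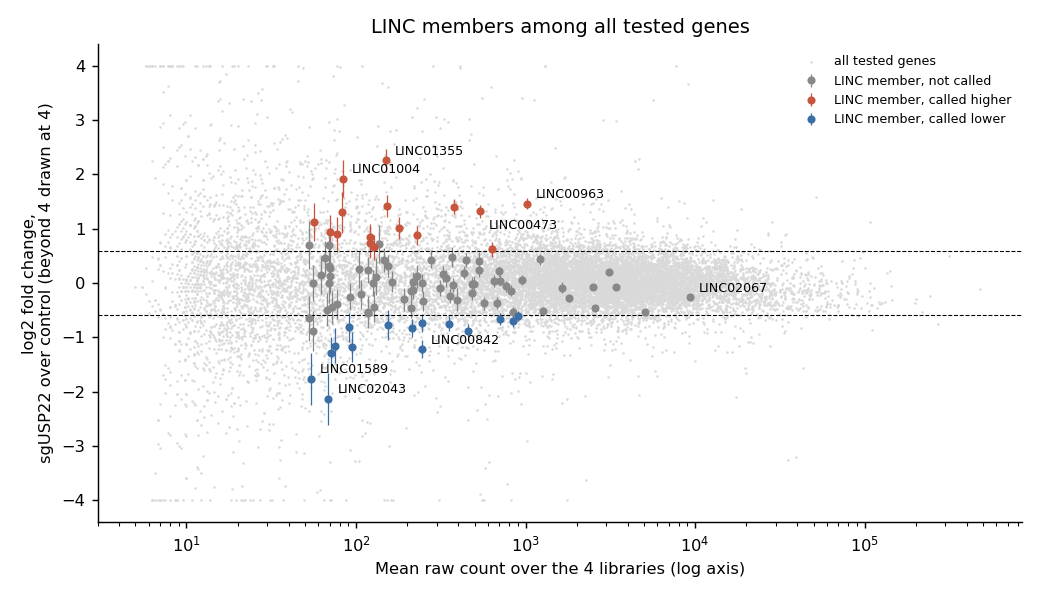
Log2 fold change between libraries labelled sgUSP22 and control against the mean raw count (log axis), with all 15150 tested genes in light grey, the 100 members as larger points with bars of 1 standard error, red where called higher, blue where called lower and dark grey where not called. Dashed lines mark 1.5-fold. The members run from −2.13 to 2.26, and the 2 lowest have long bars and under 100 counts.

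Among the increases, *LINC01355* (chr1:23281309-23285518, minus strand) was the largest. It had 52 and 47 counts in control and 242 and 259 in the libraries labelled sgUSP22, or 0.803 ± 0.070 against 3.85 ± 0.233 CPM (mean ± SD, n = 2). The log2 fold change was 2.26 (SE 0.21, edgeR, adjusted p = 1.73e-05), and the nearest coding gene, *HNRNPR*, 18253 bases away, had −0.11. *LINC01004* (chr7:104981747-104991165, minus strand) had 41 and 26 counts in control and 110 and 159 in the libraries labelled sgUSP22, with a log2 fold change of 1.92 (SE 0.34, edgeR, adjusted p = 0.000963). It lies within the body of *KMT2E*, a gene of the opposite strand that was called higher too, at 0.70.

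*LINC00963* (chr9:129488660-129513686, plus strand), first described in prostate cancer cells, combined a large change with many counts. Its counts were 541 and 504 in control and 1627 and 1413 in the libraries labelled sgUSP22, or 8.48 ± 0.561 against 23.3 ± 2.03 CPM. The log2 fold change of 1.46 (SE 0.10) had the smallest adjusted p among the members (edgeR, 2.4e-06), and it was 1.36 to 1.62 over all alternative fits. Another annotated gene matches 55.8% of its transcript at 98% identity or more, so counts may be divided between these genes. *LINC00473* (chr6:165924048-165988039, minus strand), known as a target of the cAMP-responsive factor CREB, had 289 and 306 counts in control and 749 and 817 in the libraries labelled sgUSP22. Its log2 fold change was 1.32 (SE 0.12, edgeR, adjusted p = 1.2e-05), whereas *PDE10A*, the coding gene around it, had 0.33.

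*LINC01270* (chr20:50292720-50314919, plus strand) had 199 counts in both control libraries and 572 and 544 in the others, a log2 fold change of 1.41 (SE 0.13, edgeR, adjusted p = 1.57e-05). *LINC00896* (chr22:20206332-20208537, plus strand), of a single exon, had 78 and 82 counts against 244 and 207, a log2 fold change of 1.41 (SE 0.21, edgeR, adjusted p = 0.000275). In both genes the replicates lay close together beside the difference between groups. *LINC00680* (chr6:57945834-57961446, minus strand) had 32 and 60 counts against 89 and 150, and *LINC02361* (chr12:132186735-132189695, minus strand) 41 and 27 against 82 and 75. Their log2 fold changes were 1.30 (SE 0.38, edgeR, adjusted p = 0.0151) and 1.12 (SE 0.36, adjusted p = 0.0235). Both calls were lost in several fits. That of *LINC00680* was lost without sgUSP22 replicate 2 (adjusted p = 0.148), without control replicate 1 (0.0613) and with no filter on low counts (0.0653). The *LINC02361* call was lost in DESeq2 (0.0928) and without control replicate 2 (0.114), sgUSP22 replicate 1 (0.0927) or sgUSP22 replicate 2 (0.0621). The other 8 members called higher ranged from 0.62 to 1.02 on the log2 scale.

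Among the decreases, *LINC02043* (chr3:186810880-186825521, minus strand) was the largest and also the least even between replicates. It had 85 and 137 counts in control and 13 and 40 in the libraries labelled sgUSP22, with a log2 fold change of −2.13 (SE 0.48, edgeR, adjusted p = 0.00408). *LINC01589* (chr22:45604432-45605647, minus strand) had 88 and 77 counts against 13 and 38, with −1.76 (SE 0.47, edgeR, adjusted p = 0.0105). In both genes the lowest value was that of sgUSP22 replicate 1. Without it the log2 fold changes were −1.54 and −1.20, while without sgUSP22 replicate 2 they were −3.17 and −2.75. With no filter on low counts the *LINC01589* call was lost (edgeR, adjusted p = 0.0513).

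*LINC00842* (chr10:46398362-46453306, plus strand) had 342 and 330 counts in control and 170 and 136 in the libraries labelled sgUSP22, or 5.45 ± 0.226 against 2.35 ± 0.340 CPM, a log2 fold change of −1.21 (SE 0.17, edgeR, adjusted p = 0.000233). *LINC01515* (chr10:65571425-65766541, plus strand) had 88 and 112 counts against 44 and 42, with −1.29 (SE 0.30, edgeR, adjusted p = 0.00456). Both lie on chromosome 10, as described below. *LINC01356* (chr1:112820169-112850643, minus strand) had 134 and 125 counts against 73 and 48 and a log2 fold change of −1.18 (SE 0.28, edgeR, adjusted p = 0.00552). *LINC00115* (chr1:826206-827522, minus strand) had 78 and 125 counts against 51 and 45, with −1.15 (SE 0.32, edgeR, adjusted p = 0.0123). The *LINC00115* call was lost without control replicate 2, at −0.79, and without sgUSP22 replicate 2, at −1.08. Of its transcript, 52.1% matches other annotated genes.

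*LINC00997* (chr7:32758286-32762924, plus strand) and *LINC01547* (chr21:44933284-44939913, minus strand) had smaller but even decreases. The first had 604 and 565 counts against 335 and 337, with a log2 fold change of −0.88 (SE 0.12, edgeR, adjusted p = 0.000213). The second had 264 and 268 against 166 and 152, with −0.82 (SE 0.17, edgeR, adjusted p = 0.00228). The other 7 members called lower ranged from −0.60 to −0.82 on the log2 scale.

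**Figure D2:**
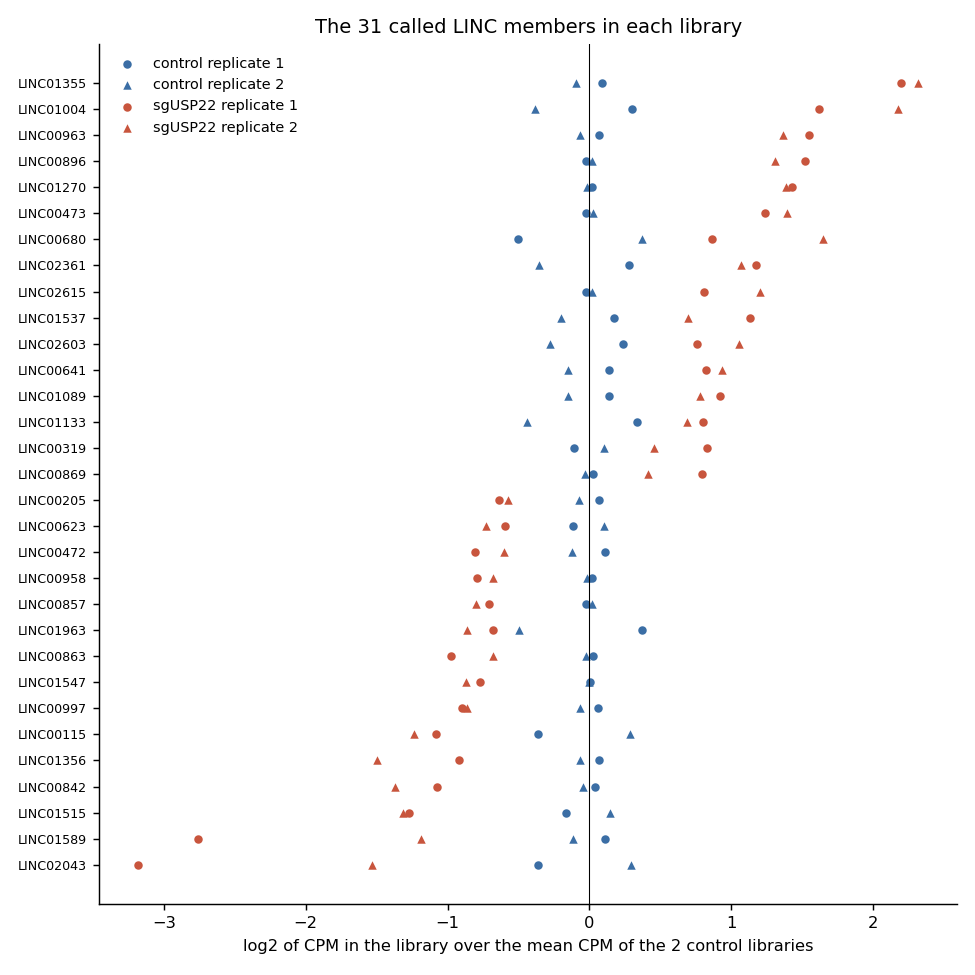
The 31 called members in each library, as the log2 of the CPM over the mean CPM of the 2 control libraries, with blue for control, red for the libraries labelled sgUSP22, circles for replicate 1 and triangles for replicate 2. In all 31 the 2 red points lie on 1 side of both blue points, and the widest gaps between red points are those of *LINC02043* and *LINC01589* at the bottom.

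In 16 of the 31 called members the call was made in every fit that included the gene, 8 higher and 8 lower. The higher ones were *LINC00473*, *LINC00641*, *LINC00896*, *LINC00963*, *LINC01004*, *LINC01270*, *LINC01355* and *LINC02615*. The lower ones were *LINC00842*, *LINC00857*, *LINC00958*, *LINC00997*, *LINC01356*, *LINC01515*, *LINC01547* and *LINC02043*. The other 15 lost the call in at least 1 fit, and 0 of the 31 changed direction in any. Tested against a change of 1.5-fold rather than 0, which is not counted among the fits above, 6 members were higher and 2 lower. Those higher were *LINC00473*, *LINC00896*, *LINC00963*, *LINC01004*, *LINC01270* and *LINC01355*, and those lower were *LINC00842* and *LINC02043*. The rest of the 16 did not pass this test, and its share over all tested genes is not given here.

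Precision followed the counts. The median standard error of the log2 fold change was 0.058 in members with at least 1000 counts, 0.17 from 100 to 1000 and 0.32 under 100. The larger gap between the 2 libraries of a group had a median of 0.10, 0.23 and 0.50 on the log2 scale in the same classes. Calls numbered 1 higher and 0 lower in the first class, 10 and 9 in the second and 5 and 6 in the third. Over all members the median gap was 0.19 in control and 0.15 in the libraries labelled sgUSP22, and 19 members had a gap of at least 1.5-fold. The widest was 1.61 in *LINC02043*, followed by 1.54 in *LINC01589* and 1.15 in *LINC00471* (chr2:231502087-231514377, minus strand). *LINC00471* had 168 and 77 counts in control and 130 and 152 in the libraries labelled sgUSP22, which fell between the control values. The replicate gap was smaller than the difference between groups in 57 members, including 29 of the 31 called.

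At the lower edge of the membership rule, groups overlapped in some genes and not in others. *LINC01512* had 52, 26, 85 and 49 counts (control 1 and 2, then sgUSP22 1 and 2; mean 53), and *LINC01163* had 50, 77, 29 and 56 (mean 53), just inside the rule beside *LINC01589* at 54.0. Just outside it, *LINC01124* had 22, 31, 56 and 88 counts (mean 49.25), *LINC00628* had 34, 62, 58 and 40 (48.5) and *LINC01279* had 57, 60, 38 and 34 (47.25).

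Of 25 LINC genes listed for their background in liver, cancer or p53 signalling, 8 were members. *LINC00963* and *LINC01578* are described above. *LINC00472* (chr6:71407864-71420745, minus strand), studied as a suppressor of breast cancer growth, had 1091 and 951 counts in control and 624 and 705 in the libraries labelled sgUSP22, a called decrease of −0.70 (SE 0.12, edgeR, adjusted p = 0.000633) that came to −0.58, under 1.5-fold, with the GC and length correction. *LINC01133* (chr1:159961224-159979086, plus strand), studied in colorectal cancer, had 109 and 65 counts against 162 and 147. Its log2 fold change was 0.75 (SE 0.28, edgeR, adjusted p = 0.0471). The call was lost in DESeq2 (adjusted p = 0.126) and in edgeR with no filter on low counts (adjusted p = 0.114). It was also lost without control replicate 2, sgUSP22 replicate 1 or sgUSP22 replicate 2, with log2 fold changes of 0.41, 0.67 and 0.80. The remaining 4 did not pass the test. *LINC00662* had 613 and 645 counts against 797 and 751 (log2 fold change 0.22), *LINC00467* 217 and 263 against 274 and 232 (−0.0021), *LINC00941* 207 and 231 against 214 and 211 (−0.12), and *LINC00673* 57 and 51 against 67 and 89 (0.45).

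The members lie on 23 chromosomes, and their nearest coding gene was at a median distance of 16670 bases. Of the 100, 18 overlap the body of a coding gene, 10 share exonic bases with it, 4 of these on the same strand, and 11 start within 1000 bases of a coding gene's start in the opposite direction. The strand setting of the counting is not given in the sources used here, so reads in shared exonic bases cannot be assigned to 1 gene, and 2 called members, *LINC01089* and *LINC02603*, have such bases. Exonic bases were compared only for the 96 members with a GENCODE gene. *LINC00473*, which lies inside *PDE10A* on the same strand, was not among them, so its shared bases are not known. The nearest coding gene was tested for 72 members. It was called the same way as its member in 6 of 26 called members, the other way in 2 and not called in 18. For the 46 uncalled members 6 neighbours were called, and over all 13125 tested coding genes 15.9% were called in either direction. The median log2 fold change of the neighbour was −0.0089 beside 14 members called higher, −0.36 beside 12 called lower and 0.086 beside the uncalled ones.

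The 6 pairs that were called together, named after their values were seen, were 4 decreases and 2 increases. *LINC00842* lies 6578 bases from *ANXA8L1*, an annexin gene with a log2 fold change of −0.79, and *LINC00857* lies 2138 bases from *ANXA11*, another annexin gene, with −0.69. Both of these pairs lie on chromosome 10 beyond 40 Mb, where many genes were lower, as given below. *LINC01589* lies 3297 bases from *FBLN1*, the extracellular matrix gene fibulin 1, with −0.64, and *LINC00997* lies 105248 bases from *KBTBD2* with −0.60. The other member on chromosome 7 below 40 Mb, *LINC00265*, was at −0.30 and its neighbour *RALA* at −0.43, neither of them called. Whether genes of that region were lower as a whole was not tested. *LINC01004* lies within *KMT2E*, which encodes a SET domain protein and had 0.70, and *LINC02603* starts 13 bases from the zinc finger gene *ZNF169*, on the other strand, with 0.97. The *LINC02603* call was lost in DESeq2 (adjusted p = 0.115). *ZNF169* was low, at 0.559 CPM in control and 1.10 CPM in the libraries labelled sgUSP22 (SE 0.36, edgeR, adjusted p = 0.0437). It shares exonic bases with *LINC02603*, so the same reads may lie behind both values. Of the 2 opposed pairs, 1 is described here: *LINC00319* rose by 0.66 at 19470 bases from *SIK1*, a salt-inducible kinase gene at −0.67. The *LINC00319* call was lost in DESeq2 (adjusted p = 0.147) and without sgUSP22 replicate 1 (0.274).

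Members next to each other could also differ, as the following pairs show, which were again named after their values were seen. *LINC01270*, at 1.41, overlaps *LINC01271* of the opposite strand, at −0.0009. *LINC00473*, at 1.32, overlaps *LINC00602* of the opposite strand, at −0.0021. *LINC00115*, at −1.15, lies 69 bases from *LINC01128*, at 0.05. None of the second members of these pairs passed the test (edgeR, adjusted p = 0.998, 0.996 and 0.750), and the difference within a pair was not tested. *LINC01270* shares 36.0% of its transcript with *LINC01271*, and *LINC01128* is among the genes that match the *LINC00115* transcript, so reads of these pairs may be divided between them.

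On chromosome 10 beyond 40 Mb, a boundary taken from earlier results of these data, there were 6 members, and all 6 had a negative log2 fold change, with a median of −0.78. *LINC00842*, *LINC01515*, *LINC00857* at −0.75 and *LINC00863* at −0.82 were called lower, and *LINC01518* at −0.14 and *LINC01163* at −0.65 were not. The *LINC00863* call was lost in DESeq2 (adjusted p = 0.112) and without sgUSP22 replicate 1, at −0.69. Of all 446 tested genes starting beyond 40 Mb, 29.8% were called lower, 82.3% had a negative log2 fold change and the median was −0.41, so the members' direction there was that of most genes of the region. The other 94 members included 16 called higher and 11 lower, with a median of −0.0015. *LINC00863* shares 95.4% of its transcript with *NUTM2E*, another gene of the long arm.

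Sequence shared between genes limits several values, and genes overlapping at the same locus were not set apart from copies. Of 96 members with an annotated transcript, 34 matched another annotated gene over at least 100 bases at 98% identity, and in 14 of them more than 50% of the transcript was matched. Among called members these 14 included *LINC00963*, *LINC00115*, *LINC00319*, *LINC00623*, *LINC00863*, *LINC00869* and *LINC02603*. *LINC01355*, *LINC01004*, *LINC00896*, *LINC02043*, *LINC01589*, *LINC01515* and *LINC01547* had 0.0% matched elsewhere.

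For comparison, 70 long noncoding RNA genes with names other than LINC numbers were listed from general knowledge, of which 66 were in the table and 47 were tested. Of these, 6 were called higher, 6 lower and 35 were not called, with a median log2 fold change of −0.12. Over all tested genes 8.88% were called higher and 7.25% lower, and the difference from the list was not tested. *MIR22HG*, the host gene of miR-22, had 114 and 80 counts in control and 837 and 831 in the libraries labelled sgUSP22, a log2 fold change of 3.02 (SE 0.18, edgeR, adjusted p = 7.91e-07). *MIR17HG*, the host of the miR-17-92 cluster, had 47 and 34 counts against 283 and 322 (log2 fold change 2.82), and *LUCAT1*, a stress-responsive RNA, 16 and 23 against 115 and 142 (2.64). These increases were larger than that of any member. *PINCR*, a p53-induced noncoding RNA, had 22 and 27 counts in control and 0 in both libraries labelled sgUSP22, at least 8.61-fold lower when each of these is set to 3 counts. *EPB41L4A-AS1* fell by 1.02 and *PVT1*, the neighbour of *MYC*, fell by 0.90 on the log2 scale. The nuclear RNAs *MALAT1* and *NEAT1*, with log2 fold changes of −0.19 and −0.12, did not pass the test (edgeR, adjusted p = 0.0659 and 0.374).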

How the data were processed

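RNA-seq of polyA RNA was deposited for 4 libraries of Sorafenib-treated cells that the labels give as HepG2, 2 labelled control and 2 labelled sgUSP22. The authors used HISAT2 2.2.1 for alignment to hg38 and deposited whole-number gene counts from StringTie 2.2.1, not divided by library size, and the submitters' processing notes also name DESeq2 1.34.0. StringTie derives counts from coverage, which can affect genes that overlap or have copies. The annotation and strand setting are not given in the sources used here.

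Counts of all genes were fitted by the quasi-likelihood functions of edgeR 4.0.16 under R 4.3.3, with TMM factors, filterByExpr at a count of 10 and Benjamini-Hochberg adjustment. The standard error of a log2 fold change was taken as its size over the root of F. Calls needed an adjusted p below 0.05 and 1.5-fold. CPM use TMM library sizes, and SD is over 2 libraries. Nothing says that the 2 libraries of a group came from separate cultures, so p-values measure the spread between these libraries, which may be technical. The replicates of a group differed beyond counting error (mean chi-square per gene 7.30 and 7.60). Floors of 3 counts cover counting error only.

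Tested on simulated counts for control against sgUSP22, edgeR recovered 93.5% of 200 changed genes with 18 false calls among 14868 genes. DESeq2 1.42.0 recovered 93.5% with 4 among 15150. All changed genes had a mean of at least 50 counts and a change of at least 2-fold. The recovery of changes between 1.5-fold and 2-fold was therefore not examined. Members were matched to RefSeq (GRCh38.p14, the hg38 assembly), 91 by symbol and 9 by synonym, and 96 through it to GENCODE, which gave lengths, neighbours and strands. Printed coordinates and promoters are RefSeq's.

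Named were the 10 members with the highest mean CPM, the 8 largest called increases and decreases, 3 on each side of the membership threshold, the 3 with the widest replicate gap, members with at most 3 counts in a group (there were 0), those of a written background list, and, of the list of other noncoding RNAs, the 3 largest called changes each way with *MALAT1* and *NEAT1*. Members outside this rule were named after their values were seen. The second pair called in opposite directions is not reported here. The members and lists were chosen with earlier results of these data known. Alternatives were DESeq2 (independent filtering at 0.1), RLE factors, library size alone, other filters, the replicate block, other call and membership rules and each library left out. A correction for GC content and transcript length (lowess span 0.3) was added after seeing the data.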

Additional observations from a re-analysis of the deposited data

How the results depend on the processing

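By DESeq2 10 members were called higher in place of 16. A test against 1.5-fold left 6 higher and 2 lower, and dropping the fold threshold gave 23 lower. Leaving out 1 library gave 10 to 17 members higher and 11 to 18 lower, with the lone library assumed to vary like the other group, and the count of 10 was without sgUSP22 replicate 1. A membership mean of at least 20 gave 152 members, with 20 called higher and 21 lower. A mean of at least 100 gave 74 members, with 11 called higher and 9 lower. For the list of other noncoding RNAs, dropping the fold threshold gave 10 higher and 12 lower, and the test against 1.5-fold 3 lower. The direction of small changes reversed for *LINC01123*, to 0.029 with the GC and length correction, and for *LINC00467*, to 0.050 with library size alone. With 1 library left out, *LINC00471* ranged from −0.35 to 0.81, *LINC01000* from −0.21 to 0.027 and *LINC00467* from −0.13 to 0.13. The cause was not tested. Library size alone moved the median of all tested genes to 0.05.

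Of 272 comparisons of named members under alternatives that kept all libraries, 262 had the same sign and stayed on the same side of 0.05. By the full call rule, which also asks for 1.5-fold, 263 kept the call, 2 gained one and 7 lost it. The correction for GC content and length accounts for both gained calls, *LINC01578* at −0.74 and *LINC00707* at −0.61, and for the loss of *LINC00472* at −0.58 and *LINC01133* at 0.72 (adjusted p = 0.0530). The correlation of deviations of libraries with the same number was 0.042, so the numbers were not taken to pair the libraries. With the replicate block 16 members were called higher and 15 lower, 30 of them among the 31, and 6 of the listed noncoding RNAs each way. Members under 100 counts carry the largest error.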

Other observations

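Below the membership threshold, 127 further LINC symbols passed the filter on low counts. Of these, 10 were called higher and 8 lower in the libraries labelled sgUSP22 (edgeR, adjusted p below 0.05 and 1.5-fold), with a median log2 fold change of −0.10. These are shares of 7.87% and 6.30%, a little under the 8.88% and 7.25% over all tested genes. The LINC symbols outside the members summed to 55.1 and 53 CPM in control and 48.9 and 52.4 CPM in the libraries labelled sgUSP22.

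Beside 6 of the 46 uncalled members with a tested neighbour, the nearest coding gene was called. Over all tested coding genes 15.9% were called in either direction. The 6 pairs were named after their values were seen. *ARID2*, a subunit gene of the PBAF chromatin remodeller, had a log2 fold change of 0.91 at 1785 bases from *LINC00938* at −0.14. *KMT2C*, a histone methyltransferase gene, had 0.81 at 27480 bases from *LINC01003* at 0.02. *TCP11L1* had 0.62 and overlaps *LINC00294* at 0.43. *PZP*, a protease inhibitor gene, had 1.55 (SE 0.48) at 31678 bases from *LINC00987* at −0.33. The level of *PZP* was low, at 0.28 CPM in control and 0.81 CPM in the libraries labelled sgUSP22. The receptor gene *VIPR2* had −0.59 beside *LINC00689* at −0.55, and *SIK1* had −0.67 beside *LINC01679* at 0.32.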
